A study of Bos taurus and Ovis aries and Capra hircus with 27 samples.

Results

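Sheep heart was compared with sheep liver over 12937 of the 25196 genes in the sheep table, namely those that exceeded 0.5 FPKM in 3 or more of the 6 libraries. FPKM is the number of sequenced fragments of a gene relative to its transcript length and to all fragments mapped in that library. The 6 libraries, 3 of heart and 3 of liver, belong to a series of 27 libraries that also covers kidney, and the same organs of cattle and goat. All came from small tail han sheep of about 3 years, and the study's methods describe unrelated adult females. No treatment or engineered allele is named for either tissue. RNA came from tissues that hold several cell types, so that fewer cells of a type and less RNA per cell cannot be told apart. The study's methods do not name the part of each organ that was sampled.

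Heart muscle contracts without rest and covers most of its energy demand by oxidation in densely packed mitochondria, so its RNA is known to be rich in transcripts of contractile proteins and of the respiratory chain. The liver secretes most proteins of the blood plasma, stores and releases sugar, clears nitrogen as urea and makes bile acids. In ruminants it also supplies nearly all glucose, since little sugar passes the rumen unfermented. This is background, and the identity of the tissues could not be checked on marker genes: none of the sheep gene identifiers was paired with a name (0 of 25196 were in the reference table, which is of cattle). Genes are therefore described in groups set by their levels, and 4 genes are given by identifier.

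Of the genes in the table, 7466 were listed at 0 in all 6 libraries, and 12259 in all did not reach the level for testing. Summed FPKM lay between 945628 and 1284327 in heart and between 556349 and 587533 in liver. The depth of the libraries is unknown, as the table holds no counts. Liver 1 stood apart from the other liver libraries. Over the tested genes its mean log2(FPKM + 1) was 2.38, against 2.80 in liver 2, 2.84 in liver 3 and 2.77 to 2.95 in heart.

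A large part of the genes differed between heart and liver. By limma's moderated test on log2(FPKM + 1), 6536 genes (50.5%) passed an adjusted p of 0.05 (Benjamini-Hochberg) and are called different. Of these, 4332 were higher in heart (33.5% of the genes tested) and 2204 were higher in liver (17.0%), so that 66.3% of the calls were higher in heart. All heart libraries exceeded all liver libraries in 5333 genes (41.2%), and the opposite held for 2563 genes (19.8%). Without liver 1, 7956 genes were called, 58.8% of them higher in heart.

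The balance of calls between heart and liver depended on how libraries were scaled. The median log2 difference of heart minus liver over all tested genes was 0.30 with the deposited values. Median ratio scaling divides a library by the median, over genes, of its ratio to the geometric mean of the 6 libraries. With it the median difference was 0.08 and 55.6% of the calls were higher in heart (3717 against 2966). Quantile normalization gave 0.09 and 56.1%. When all libraries were brought to the same summed FPKM, the median was −0.37 and 34.3% of the calls were higher in heart (2225 against 4265). A set of 2209 genes was called higher in heart with the deposited values and under all 3 of these scalings, which is 51.0% of the calls higher in heart. The same held for 2194 of the genes called higher in liver (99.5%). Each of the 3 scalings moved the median difference toward liver, so they mainly could remove calls higher in heart. The 2 shares therefore do not compare how firm the calls of each tissue are.

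**Figure D1:**
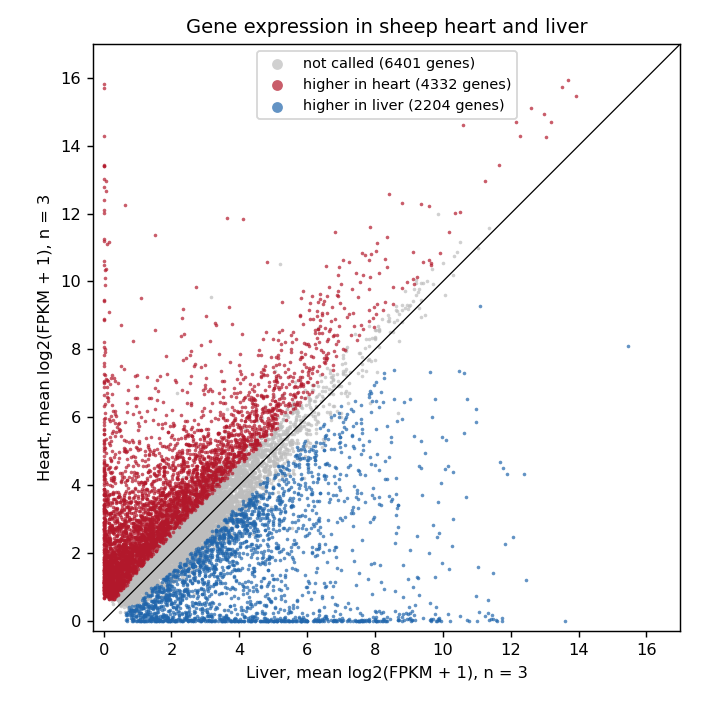
Mean log2(FPKM + 1) of 3 heart libraries (vertical axis) against 3 liver libraries (horizontal axis) for the 12937 genes tested, with the 4332 genes called higher in heart in red, the 2204 called higher in liver in blue and the 6401 not called in grey. Called genes far from the line of equal level lie along both axes, and those at the highest levels in both tissues lie above the line.

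For genes that passed the level through a single tissue, the direction of the difference was set in advance. In 990 genes all heart libraries were above 0.5 FPKM and no liver library was, and in 678 genes the reverse was seen, which together make 12.9% of the genes tested. These 1668 genes held 1654 calls. The other 11269 genes held 4882 calls (43.3%), 3351 higher in heart and 1531 higher in liver.

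Small differences mostly favoured heart with the deposited values, whereas very large ones mostly favoured liver under each scaling. Among called genes that differed by less than 1 on the log2 scale, 1274 were higher in heart and 438 were higher in liver. At 1 to 2 the numbers were 1854 and 757. Both size classes held more genes higher in liver at the same summed FPKM, with 608 against 968 genes and 921 against 1785. Between 3 and 5 the numbers were close, with 356 and 353 genes, but they were 299 and 385 with median ratio scaling, 222 and 483 at the same summed FPKM, and 775 and 413 with a pseudocount of 0.1. At 5 or more, 146 genes were higher in heart and 306 in liver, so that heart had 32.3% of these calls. This share was 28.3% with median ratio scaling, 20.6% at the same summed FPKM, 31.2% after quantile normalization and 30.3% without liver 1. It was 40.9% with a pseudocount of 0.1, under which the fold changes of low genes are larger, and liver remained in the majority. A limit of 3 gave 502 genes higher in heart and 659 in liver, but 1146 and 948 with that pseudocount. The difference fitted for a gene listed at 0 in a tissue depends on the pseudocount. With such genes left out, 109 genes were at least 5 higher in heart and 213 in liver.

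**Figure D2:**
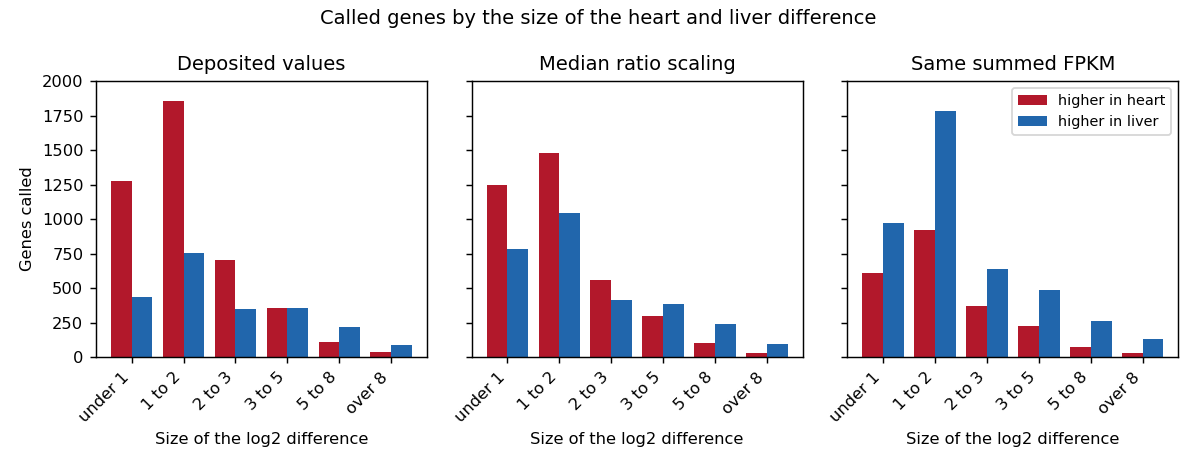
Number of called genes (vertical axis) by the absolute size of the log2(FPKM + 1) difference (horizontal axis), higher in heart in red and higher in liver in blue, for deposited values, median ratio scaling and libraries brought to the same summed FPKM. Heart bars are taller at small sizes in the first and second panels, and liver bars are taller from 5 upwards in all 3.

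The balance of calls also varied with the level of expression in the deposited values. Among the 155 genes with a mean log2(FPKM + 1) above 8, 79 were higher in heart (51.0%) and 14 in liver (9.03%). With the same summed FPKM the numbers were 44 and 26. The share of genes higher in heart was lowest at intermediate levels. It was 44.3% of 1486 genes below a level of 1, 34.7% at 1 to 2, 27.1% at 2 to 3, 30.8% at 3 to 5 and 41.1% at 5 to 8. The share higher in liver over the same classes was 14.3%, 13.5%, 15.6%, 20.8% and 25.3%. The classes include the genes above 0.5 FPKM in a single tissue, whose direction that filter set. Their part in each class was not counted. Of the 239 genes above 100 mean FPKM in both tissues, 101 were called higher in heart and 14 higher in liver, and for 54 the 95% interval of the difference lay within 1 of 0 on the log2 scale. The excess of heart among these 239 genes was 71 against 21 with median ratio scaling and 90 against 14 after quantile normalization, and it was lost at the same summed FPKM, with 49 against 51. Above 1000 mean FPKM there were 90 genes in heart, 82 in liver and 24 in both. Of the 24 genes, 16 were called higher in heart and none higher in liver. With the 3 other scalings, 5 to 10 were called higher in heart and 0 to 2 higher in liver.

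Heart drew its summed FPKM from fewer genes than liver. The number of highest genes that made up 50% of the summed FPKM was 13, 12 and 16 in the heart libraries and 39, 78 and 88 in the liver libraries. The groups did not overlap. The means were 13.7 ± 2.08 and 68.3 ± 25.9 (SD, n = 3; 2-sided exact permutation p = 0.1, the smallest that 3 libraries against 3 allow, and 0.15 after Benjamini-Hochberg adjustment over 3 measures). To reach 90% of the sum, 779, 648 and 1011 genes were needed in heart and 1296, 2158 and 2114 in liver, again without overlap (exact permutation p = 0.1, adjusted 0.15). In both measures liver 1 was the liver library nearest to heart. The number of genes above 1000 FPKM was 89, 108 and 90 in heart and 77, 80 and 94 in liver, which overlapped (exact permutation p = 0.3, adjusted 0.3). The numbers for 50% and 90% do not change when a library is divided by a constant, unlike the number above 1000 FPKM. Quantile normalization is not such a scaling, since it gives the libraries a common distribution, and it was not applied to these measures.

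**Figure D3:**
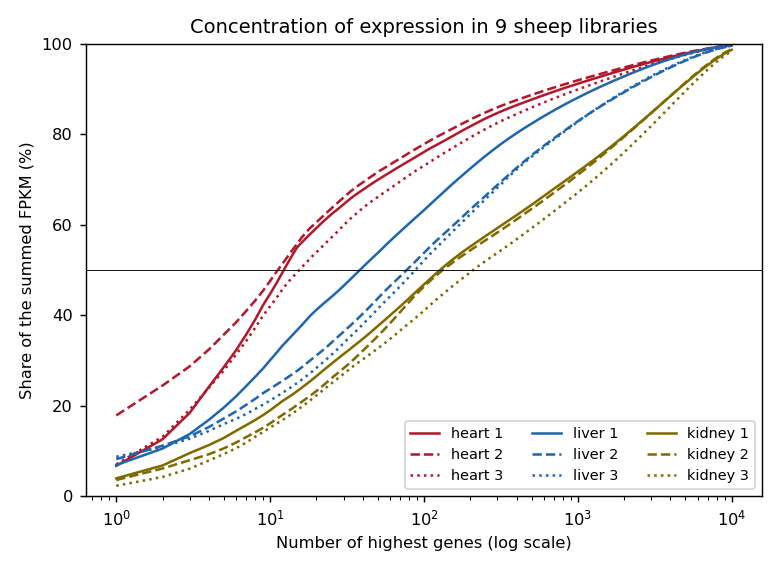
Share of the summed FPKM (vertical axis, percent) held by the given number of highest genes (horizontal axis, log scale) in each sheep library, with heart in red, liver in blue and kidney in brown, and replicates by line type. The thin line marks 50%, which the heart libraries cross at 12 to 16 genes, the liver libraries at 39 to 88 and the kidney libraries at 128 to 209.

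The lists of the 10 genes with the highest mean FPKM in heart and in liver shared 6 genes. Each list was chosen on the level in its own tissue, which favours calls higher in that tissue. All 10 of heart were called higher in heart, but 8 were with median ratio scaling, 7 at the same summed FPKM and 4 after quantile normalization. Of the 10 of liver, 7 were called higher in heart and 3 higher in liver. The 7 are also among the 24 genes above 1000 mean FPKM in both tissues, so these counts are not separate observations. The 3 were called under each scaling, but the 7 became 4 with median ratio scaling, 3 at the same summed FPKM and 0 after quantile normalization. The highest gene of liver had 38253, 45751 and 51211 FPKM in the liver libraries and 261, 329 and 230 FPKM in the heart libraries. It was thus far above heart in each liver library, and on the log2 scale it fell by 7.37 ± 0.24 (SE) from liver to heart. No p-value is given for this gene, since it was chosen for its liver level. This highest gene of liver was listed at 0 in all 3 kidney libraries. The liver gene at rank 9 had 10247, 7336 and 2287 FPKM in liver, a spread of several fold, and at most 1.92 in heart.

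The largest differences were of genes at very high level in one tissue and at or near 0 in the other. ENSOARG00000015719 had 31711, 84832 and 56510 FPKM in the heart libraries, whereas liver and kidney were all listed at 0. ENSOARG00000024133 was likewise listed at 0 in liver and kidney, and its heart values of 57588, 229327 and 14500 FPKM differed from each other by up to 15.8-fold. It held 5.82%, 17.9% and 1.53% of the summed FPKM of heart 1, 2 and 3. No fold change is given for genes listed at 0, because such a value can be a failed estimate. No p-value is given either, since these genes were chosen for their differences and passed the level through one tissue.

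ENSOARG00000009808 had 3892, 2243 and 4686 FPKM in liver and was listed at 0 in all heart libraries, and its kidney values were 0.886, 4.44 and 1.99 FPKM. ENSOARG00000000016 had 15136, 11588 and 10719 FPKM in liver and was also listed at 0 in heart. In kidney it had 5060, 6801 and 5314 FPKM. Here the zero in heart stood against the genes with neighbouring identifier numbers, a group chosen after the values were seen. Of the 37 genes with the lowest numbers, 22 were listed at 0 in all 6 libraries and 15 were tested. Of those tested, 12 were called higher in heart by 1.23 to 2.54 on the log2 scale (median 1.97), 2 were not called, and ENSOARG00000000016 was called higher in liver. Over all genes tested, 33.5% were called higher in heart. Under the 3 other scalings, 2 to 8 of these genes were called higher in heart and ENSOARG00000000016 alone higher in liver. This group overlaps the lists of highest genes given above. The smallest and largest of the 12 differences are those of the liver gene at rank 7 and the heart gene at rank 9. The counts of these groups are thus not separate observations. The 37 genes held 39.7%, 23.6% and 37.5% of the summed FPKM in heart and 26.2%, 16.7% and 13.3% in liver, so that heart 2 lay below liver 1. A missing transcript and a failed estimate cannot be told apart for ENSOARG00000000016.

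**Figure D4:**
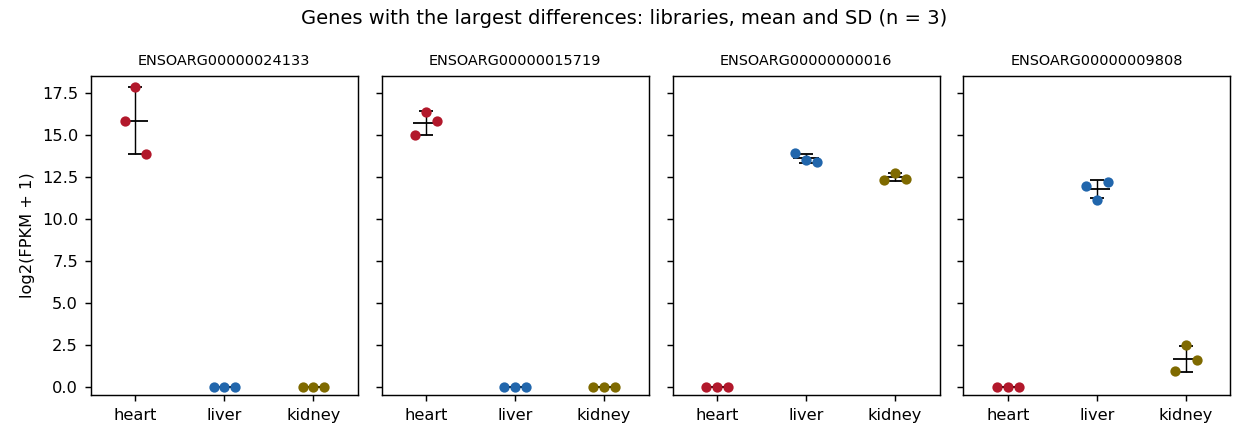
log2(FPKM + 1) of the 4 genes with the largest differences (vertical axis) in 3 libraries each of heart, liver and kidney (points), with the mean and SD (bars). ENSOARG00000024133 and ENSOARG00000015719 are at 0 outside heart, and ENSOARG00000000016 is at 0 in heart and near its liver level in kidney.

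The 10 genes with the largest difference in each direction were all measured at high level. The 10 of heart ranged from 4020 to 229327 FPKM in their own tissue, and in liver their highest value was 0.146 FPKM, with 8 of them listed at 0. In kidney they reached at most 0.237 FPKM. The 10 of liver ranged from 1235 to 15136 FPKM in liver and reached at most 1.92 FPKM in heart, where 3 were listed at 0. All 10 of heart were below 0.5 FPKM in all kidney libraries, and none of the 10 of liver was. The ratio of the highest to the lowest library of the same tissue had a median of 1.85 among the 10 of heart and of 1.92 among the 10 of liver.

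A gene was counted as restricted to a tissue, between heart and liver, when all its libraries exceeded 10 FPKM and all libraries of the other tissue were below 0.5 FPKM. There were 147 genes restricted to heart and 277 restricted to liver. Liver had more such genes also with median ratio scaling (134 and 302) and at the same summed FPKM (117 and 333). Above 100 FPKM there were 48 and 96, and liver again had more with median ratio scaling (42 and 115) and at the same summed FPKM (36 and 126). At other levels the order depended on the scaling. Above 0.5 FPKM, 990 genes were restricted to heart and 678 to liver, but 652 and 852 at the same summed FPKM. Above 1000 FPKM there were 21 and 15, but 18 and 19 at the same summed FPKM. Genes listed at 0 in all libraries of the other tissue made up 47 of the 147 and 112 of the 277 genes.

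Restricted genes took a similar share of both tissues apart from heart 2. The 147 genes held 19.2%, 39.2% and 20.3% of the summed FPKM of the heart libraries, and the 277 genes held 16.7%, 18.4% and 19.9% of that of the liver libraries. The excess of heart 2 was largely ENSOARG00000024133, since the genes restricted to heart held 13.4%, 21.4% and 18.8% without it. In the opposite tissue these genes held at most 0.00273% of the summed FPKM, which the rule used to choose them sets.

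Kidney was not used to choose the restricted genes, and its values are given as a further measurement of them. Of the 147 genes restricted to heart, 68 (46.3%) were below 0.5 FPKM in all kidney libraries. Of the 277 restricted to liver, 176 (63.5%) were. The share over all genes tested was 6.28%. Only 1 of the 147 and 6 of the 277 genes exceeded 10 FPKM in all kidney libraries, against 38.7% of all genes tested. Above 1000 FPKM, 16 of the 21 genes restricted to heart were below 0.5 FPKM in all kidney libraries and 9 were listed at 0 there. None of the 15 genes restricted to liver was. Apart from ENSOARG00000000016, these liver genes had a highest kidney library between 0.826 and 11.5 FPKM. Their mean in kidney was 0.0317% to 0.280% of that in liver. The limit of 0.5 FPKM is fixed and takes no account of the level in the own tissue. Why these genes exceeded it in kidney was not tested.

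**Figure D5:**
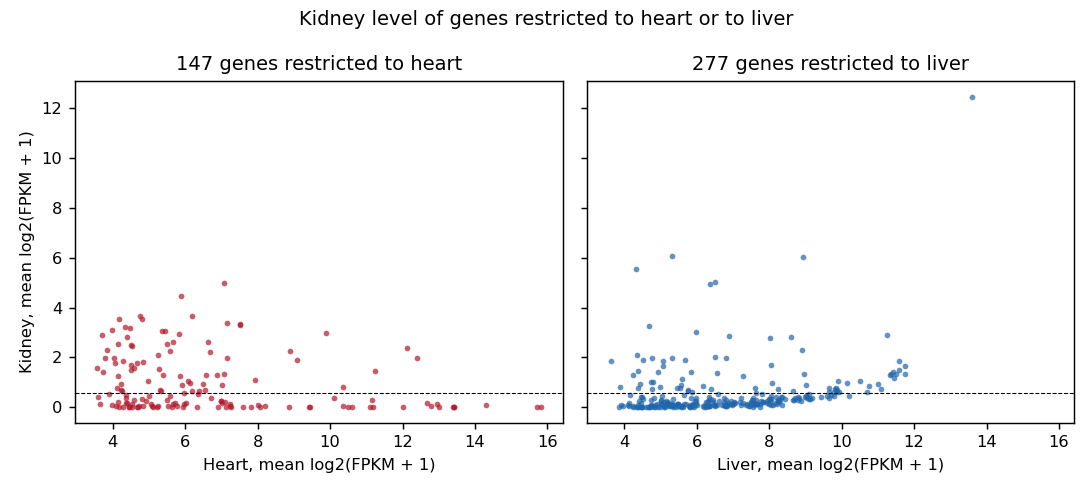
Mean log2(FPKM + 1) in kidney (vertical axis, n = 3) against that in the own tissue (horizontal axis, n = 3) for 147 genes restricted to heart (left) and 277 restricted to liver (right), with 0.5 FPKM as a dashed line. The highest heart genes lie near 0 in kidney, whereas the kidney level of the highest liver genes rises above the line, with ENSOARG00000000016 at the top right.

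Replicates were closer in heart than in liver, and liver 1 set most of that gap. Among genes with a mean log2(FPKM + 1) of 5 to 8, log2 differences between 2 libraries had a robust SD of 0.309, 0.301 and 0.268 for the 3 pairs of heart libraries. The value was 0.848 between liver 1 and 2, 0.759 between liver 1 and 3 and 0.378 between liver 2 and 3. Above a mean of 5, 70 genes differed by more than 2 on the log2 scale between liver 1 and 3, of which 48 were higher in liver 3. Of these 48 genes, 36 were called higher in liver than in heart, and so were 13 of the 22 that were higher in liver 1. Of all 1439 genes at that level, 726 (50.5%) were called higher in liver, so that 59.1% of the 22 genes was close to the background. Between liver 2 and 3, 17 genes differed by as much, and between heart libraries 4 to 8 did. The median SD per gene over 3 libraries at levels of 3 to 5 was 0.180 in heart and 0.435 in liver.

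Some abundant genes were seen in part of the libraries of a tissue. In heart, 11 genes with a median above 100 FPKM were listed at 0 in 1 library, and 20 genes were above 100 FPKM in 1 library and listed at 0 in the others. Of the latter, 13 were in heart 2. The highest of them had 36750 FPKM, in heart 1. In liver the numbers were 5 and 12, and the highest value was 5319 FPKM.

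Among the 6401 genes not called, the estimate was close to 0 for many but not for all. For 3402 of them (53.1%) the 95% interval of the log2 difference lay within 1 of 0, on the log2(FPKM + 1) scale, where a fold change of a low gene is understated. In 209 genes not called the difference was 1 or more. The remaining intervals reached beyond 1, and for these genes the libraries do not show whether the tissues differ by so much.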

How the data were processed

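Heart and liver of 3 sheep were compared in 6 messenger RNA libraries. Per the labels, the dUTP protocol kept the strand and Cufflinks 2.2.1 was used for quantification. According to the study's methods, filtered reads were mapped with TopHat to the sheep genome Oar_v3.1 (the labels list the cattle build UMD3.1 for all samples). The authors deposited values on the log2 scale, log2(FPKM + 1), which were turned back into FPKM by inverting that formula. FPKM is relative: a few very abundant transcripts lower all others. The depth is not known, so no counting intervals are given.

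Groups were taken from sample titles and columns from sample descriptions. Genes above 0.5 FPKM in at least 3 of 6 libraries were fitted with limma 3.58.1 (R 4.3.3): each tissue with its own mean, eBayes with the trend option, 2-sided, Benjamini-Hochberg adjustment over all genes tested at 0.05. Fold changes on this scale understate low genes. The fit was tested on simulated data. Same-numbered heart and liver libraries deviated together from their tissue means (r = 0.31, 0.21 and 0.22 over genes). The numbers may therefore pair the samples, and the methods describe several tissues taken from each animal. The labels do not say that a number marks 1 animal, so the main fit was unpaired. The replicate block was an alternative. Python 3.11.15 with scipy 1.17.1 served for exact permutation tests.

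Members and lists were chosen with earlier results of these data known. Gene lists (muscle, mitochondria, plasma proteins, other cell types) were not used here, because no identifier had a symbol. By the rule for that case, the 2 genes with the largest difference in each direction, with replicates that do not overlap, are named. The genes of neighbouring identifier numbers and the restricted genes were chosen after values were seen. Alternatives were other scalings, pseudocounts, filters and fits, and leaving out each library.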

Additional observations from a re-analysis of the deposited data

How the results depend on the processing

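The number of genes called stayed within 1.5 times of 6536 under all 18 alternatives, from 4358 (above 0.5 FPKM in at least 5 of 6 libraries, which tests fewer genes) to 7956 (without liver 1). Leaving out a library gave 5075 to 7956 calls, of which 58.8% to 68.3% were higher in heart. A fit with the replicate block gave 7093 calls, 66.2% of them higher in heart, and moved no count of calls by more than 1.5 times. Scaling changed the balance of the calls between heart and liver. The share higher in heart was 55.6% with median ratio scaling and 56.1% with quantile normalization. It was 34.3% at the same summed FPKM, where the median log2 difference was −0.37. Of the genes called higher in heart with the deposited values, 0 were called higher in liver at the same summed FPKM. The same sum over genes below 1000 FPKM, chosen after the data were examined, gave 62.3%. The share was 68.1% with the filter at 5 libraries and 63.4% with a minimum log2 difference of 1.

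Among calls of at least 5 on the log2 scale, the share higher in heart was 20.6% at the same summed FPKM, 40.9% with a pseudocount of 0.1 and 30.3% to 34.2% without single libraries. Without single libraries, 151 to 174 genes were restricted to heart and 282 to 328 to liver, and heart needed 44.8 to 69.3 fewer genes than liver for 50% of the summed FPKM. Setting 15 isolated zeros missing, also chosen later, gave 6548 calls. The filter at 5 libraries removed the 4 named genes, which are listed at 0 in the other tissue. Isolated zeros and the unknown depth limit what can be said of single genes.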

Other observations

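Most genes restricted to liver above 100 FPKM were present in kidney at a small proportion of their liver level. Over these 96 genes, the mean kidney level was 0.0594% of the mean liver level (median, quartiles 0.0470% and 0.0886%), and 1 gene was listed at 0 in kidney. Some genes lay far above these quartiles. ENSOARG00000000016 had a mean of 5725 FPKM in kidney and 12481 in liver. Another gene had 61.7 to 66.8 FPKM in the kidney libraries and 397 to 709 in the liver libraries. The medians of the kidney libraries were 0.0303%, 0.0554% and 0.0900%. Over the 48 genes restricted to heart above 100 FPKM, the median was 0.00391% of the heart level, with quartiles of 0% and 0.158%, and 15 genes were listed at 0 in kidney. Genes of a tissue share libraries and are not independent, and no test was made. The source of these kidney values was not tested.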
